A study of Mus musculus with 12 samples.

Results

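Replication-dependent histone genes are described here across 12 RNA-seq libraries. They were chosen by name alone: a gene belongs if its symbol in the deposited FPKM table is that of a clustered H1, H2A, H2B, H3 or H4 gene. The rule found 64 of 29549 named genes, of which 5 were H1, 18 H2A, 17 H2B, 12 H3 and 12 H4 genes. On mm10, 54 of them lay on chromosome 13 (21715763 to 51203065) and 10 on chromosome 3 (96219865 to 96270132). GENCODE M21 calls 62 of them protein-coding and 2 pseudogenes (H2ac14 and Hist1h2al).

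Replication-dependent histone genes supply the proteins that package newly copied DNA. H2A and H2B pair as dimers, H3 and H4 form the core tetramer, and H1 binds the linker DNA between nucleosomes. Their mRNAs mostly lack introns and end in a conserved stem-loop in place of a poly(A) tail. SLBP binds that stem-loop, and the U7 snRNP directs the cut behind it. Transcription is tied to S phase through NPAT, and the mRNAs are degraded quickly when DNA synthesis stops.

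The libraries form 4 groups of 3, from cells labelled B16F10, a mouse melanoma line. In sgRnf19a_IR the cells carried the guide against Rnf19a and had 24 h of the treatment labelled IR, and in control_IR they carried the control guide sgNC and had the same treatment. In sgRnf19a and control the cells carried these guides without IR. IR is not spelled out in the labels, and they give no dose, clone or separate culture, so that p-values measure only the spread between these libraries. Rnf19a encodes a RING-between-RING ubiquitin ligase. The IR-treated table columns carry a D and numbers of their own, and are taken as the IR-treated libraries, since the untreated ones match other columns.

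Depth was 34.3 to 45.6 M counts in the 6 IR-treated libraries and 62.7 to 71.3 M in the 6 untreated ones. Ribosomal RNA took 11.4 to 22.2% of counts in the IR-treated and 0.408 to 0.813% in the untreated libraries. Rnf19a stood at 18.1, 11.6 and 37.7 CPM in sgRnf19a_IR and 4.37, 8.06 and 5.39 CPM in control_IR, and at 27.4, 25.6 and 22.6 CPM in sgRnf19a and 33.5, 29.4 and 21.5 CPM in control. Its mRNA was thus higher, not lower, in the IR-treated libraries that carry the guide's label, and gene-level counts do not show an edit, so guide effects are given as differences between libraries labelled sgRnf19a and libraries labelled control. Of 8 melanocyte markers Mlana, Slc45a2, Tyr and Tyrp1 had 0 counts in every library, and the summed level of the others was 2.29 to 10.5 CPM in IR-treated and 9.53 to 16.4 CPM in untreated libraries. The labelled melanoma line was therefore not borne out by its defining markers.

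The stem-loop sets these mRNAs apart from nearly all others, so it is shown first, as DNA letters of GENCODE M21 transcripts with 5 bases on each side. Capitals mark the 16 bases of the stem, the loop and the returning stem. The common form of H1, H2A, H2B and H3 genes comes first, then forms with another loop base, then those of H4 genes.
H1f2: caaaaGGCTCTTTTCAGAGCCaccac
H2ac18: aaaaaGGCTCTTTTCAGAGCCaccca
H2bc8: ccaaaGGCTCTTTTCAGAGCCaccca
H3c15: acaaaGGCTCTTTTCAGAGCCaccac
H2bc12: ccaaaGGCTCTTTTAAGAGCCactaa
H2ac20: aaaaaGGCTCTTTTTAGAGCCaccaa
H4c4: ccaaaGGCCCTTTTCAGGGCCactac
H4c9: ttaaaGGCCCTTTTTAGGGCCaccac
H4c14: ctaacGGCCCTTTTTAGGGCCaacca
H4c2: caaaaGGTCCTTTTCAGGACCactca

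The annotated transcripts of 40 members held 1 of 6 forms of this element. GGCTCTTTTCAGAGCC was shared by 3 H1, 9 H2A, 7 H2B and 5 H3 genes, and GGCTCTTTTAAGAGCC by 2 H2B and 3 H3 genes. H2ac20 had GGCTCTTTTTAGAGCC. The H4 genes had other stems, with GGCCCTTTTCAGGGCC in 6, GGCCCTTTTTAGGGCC in H4c9 and H4c14, and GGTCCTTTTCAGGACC in H4c2 and H4c11. Among 21835 other protein-coding genes the same pattern was found in 8, H2ax among them. In 22 members the annotation ended within 100 bases of the stem-loop, in 18 it ran further, and in the other 24, whose median length was 408 bases, it held no such element.

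Promoters are shown because members that move together may share start-site elements. RefSeq promoters (GRCm38.p6, 250 bases before to 50 after the start) were at hand for 49 members. H1f2 and H4c9 had the highest FPKM, the H2ac20 window also spans the start of H2bc21, and H2bc8 holds all 3 motifs searched. Capitals mark the octamer ATTTGCAT, the TATA box TATAAA and the CCAAT box, each searched on both strands.
H1f2 promoter, chr13:23738557-23738856, plus strand: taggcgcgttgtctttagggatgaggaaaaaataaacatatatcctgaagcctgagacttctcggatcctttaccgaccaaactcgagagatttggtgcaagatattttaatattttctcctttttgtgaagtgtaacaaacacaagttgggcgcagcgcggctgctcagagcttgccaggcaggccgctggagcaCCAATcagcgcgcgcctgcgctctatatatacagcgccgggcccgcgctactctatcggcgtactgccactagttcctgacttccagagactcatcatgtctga
H4c9 promoter, chr13:22041313-22041612, minus strand: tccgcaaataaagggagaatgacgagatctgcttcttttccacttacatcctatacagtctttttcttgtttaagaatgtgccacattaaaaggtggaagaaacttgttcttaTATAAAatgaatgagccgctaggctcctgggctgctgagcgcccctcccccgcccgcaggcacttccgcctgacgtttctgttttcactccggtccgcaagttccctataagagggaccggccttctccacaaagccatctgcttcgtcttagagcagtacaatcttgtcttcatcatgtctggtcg
H2ac20 promoter, chr3:96220831-96221130, minus strand: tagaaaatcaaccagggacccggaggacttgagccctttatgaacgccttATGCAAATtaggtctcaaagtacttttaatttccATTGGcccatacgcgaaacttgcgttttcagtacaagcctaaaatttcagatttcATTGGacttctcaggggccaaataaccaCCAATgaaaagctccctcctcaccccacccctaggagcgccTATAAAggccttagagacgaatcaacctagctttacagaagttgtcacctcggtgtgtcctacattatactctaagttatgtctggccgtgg
H2bc8 promoter, chr13:23571150-23571449, plus strand: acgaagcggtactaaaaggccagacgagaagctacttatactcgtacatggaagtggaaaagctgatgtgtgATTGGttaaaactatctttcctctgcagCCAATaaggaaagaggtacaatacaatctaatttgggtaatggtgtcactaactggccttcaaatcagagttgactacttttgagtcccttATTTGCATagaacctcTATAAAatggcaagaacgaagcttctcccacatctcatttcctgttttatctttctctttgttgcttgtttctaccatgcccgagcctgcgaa

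The octamer was in 12 of 49 member promoters (24.5%), against 1.97% of 27025 promoters of all genes. It was in 7 of 12 H2B and 5 of 13 H2A promoters and in 0 of the H1, H3 and H4 promoters. The TATA box was in 59.2% of member promoters and 15.7% of all promoters. The CCAAT box was in 87.8% of member promoters and 41.1% of all promoters; every H1, H2A, H2B and H3 promoter in the table held it, as did 3 of 9 H4 promoters. In 12 places an H2A and an H2B gene faced away from each other with starts 176 to 302 bases apart. Windows of such pairs can overlap, and the same site is then counted for both genes. This holds for the octamer of H2ac12 and H2bc12 and for that of H2ac8 and H2bc8. A match describes letters, not a bound site.

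Copies of these genes share sequence, and reads of 37 bases cannot always be placed. In 36 members at least 50% of the 37-base stretches of the transcript recurred in another member. The median share was 81.8% in H2A, 59.6% in H3, 49.2% in H2B, 46.2% in H4 and 2.73% in H1 genes. It was 0.542% for H2bc21, 1.82% for H4c14 and 10.3% for H1f2. Values of single genes with a high share are uncertain, and sums by class are given beside them; H2bc6 also overlaps H1f4.

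Untreated cells had little histone RNA in these libraries. Members took 0.00655 to 0.00712% of counts in sgRnf19a and 0.00541 to 0.00797% in control. On the FPKM scale, which divides by length, H1f2, an H1 linker histone gene, averaged 14.7 ± 0.624 FPKM in sgRnf19a and 11.4 ± 3.48 FPKM in control (SD, n = 3 each). H4c9, an H4 gene, averaged 10.1 ± 0.460 FPKM in sgRnf19a and 14.7 ± 4.45 FPKM in control. H2bc4, an H2B gene, averaged 6.83 ± 0.749 FPKM in sgRnf19a and 4.30 ± 0.676 FPKM in control. These 3 had the highest FPKM means in each of the 4 groups, and the levels of H1f2 and H4c9 in control lay within their spread of each other. In counts, H1f2, H2bc4, H2bc21 and H4c9, a set picked after values were seen, made up 70.8 ± 1.14% of member counts in sgRnf19a and 63.9 ± 1.69% in control (SD, n = 3 each). At the other end H2bc1 had 1 count in all libraries together, H2bc18 had 2, H3c13 had 4, Hist1h2al had 7, and H2ac19 had 27, all in control replicate 2. These 5 did not pass the filter on low counts, which left 59 members for testing.

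After IR the histone genes stood higher as a family under both guides. The sum of all members was 238, 411 and 244 CPM in sgRnf19a_IR and 56.3, 62.8 and 62.1 CPM in sgRnf19a, and 394, 367 and 365 CPM in control_IR and 46.9, 45.8 and 68.3 CPM in control. Every IR-treated library lay above every untreated one, and within sgRnf19a_IR replicate 3 was far above the other two. The sum was 4.94-fold higher with IR in sgRnf19a-labelled cells (log2 fold change 2.30, SE 0.23) and 7.01-fold higher in control cells (2.81, SE 0.23). Sums are given without a p. In bulk RNA a larger share of cells that express these genes and more histone RNA per cell cannot be told apart. Library make-up also differed with IR, with rRNA at 11.4 to 22.2% of counts in IR-treated and 0.408 to 0.813% in untreated libraries. Its part in this rise cannot be told apart from IR either and was not tested.

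**Figure D1:**
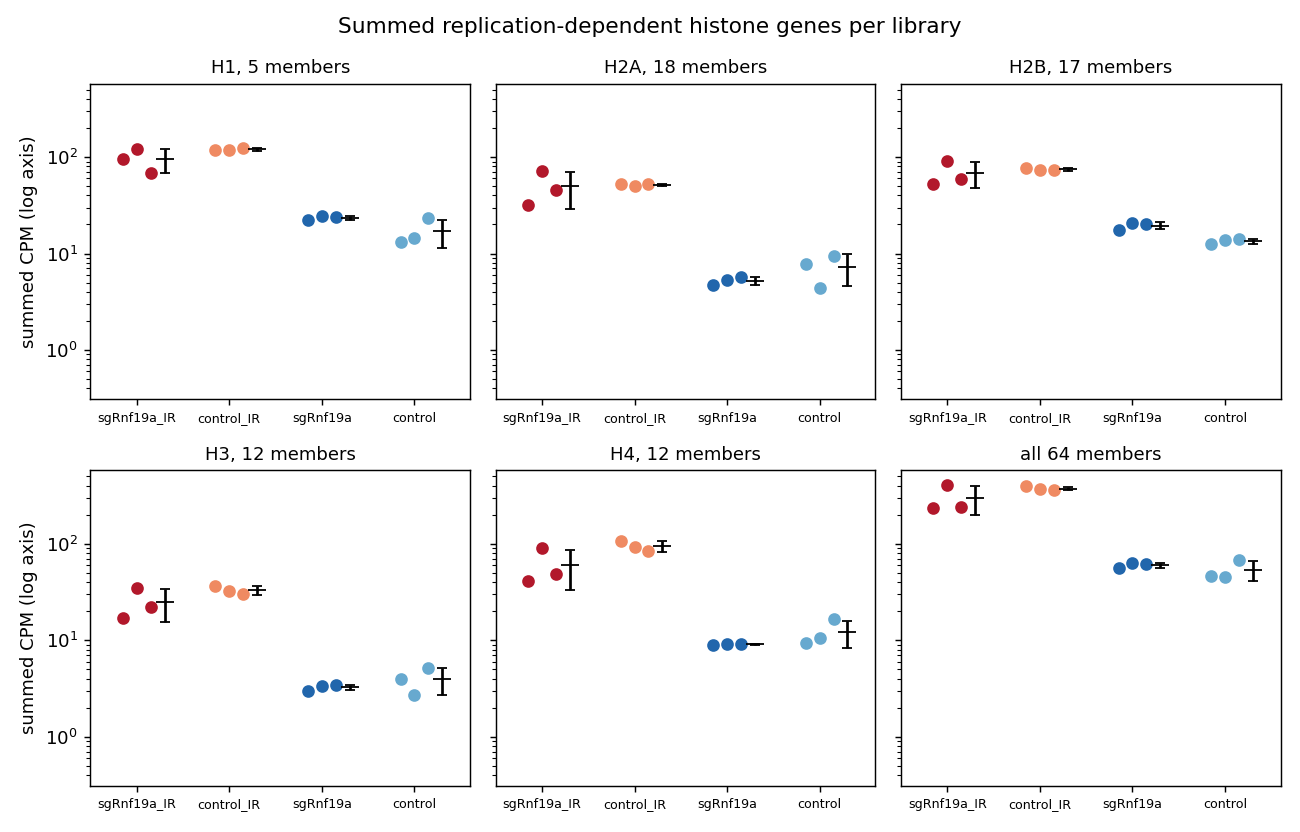
Summed CPM of the histone genes of each class and of all 64 members (log axis) in the 12 libraries; points are libraries, and bars are the mean ± SD of 3. For all members the sgRnf19a_IR libraries (238 to 411 CPM) and the control_IR libraries (365 to 394 CPM) lie above all untreated libraries (45.8 to 68.3 CPM).

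All 5 classes were higher with IR. In sgRnf19a-labelled cells the log2 fold change of the class sum was 2.03 (SE 0.24) for H1, 3.25 (SE 0.33) for H2A, 1.80 (SE 0.19) for H2B, 2.93 (SE 0.29) for H3 and 2.73 (SE 0.30) for H4. In control cells it was 2.84 (SE 0.24) for H1, 2.83 (SE 0.32) for H2A, 2.48 (SE 0.19) for H2B, 3.06 (SE 0.29) for H3 and 2.98 (SE 0.30) for H4. In every class the treated libraries lay above the untreated ones of the same guide. The 4 genes that led the counts had a log2 fold change of 1.69 in sgRnf19a-labelled and 2.38 in control cells, against 3.18 in sgRnf19a-labelled and 3.35 in control cells for the sum of the other 60. The 4 held 46.9 ± 8.81% of member counts in sgRnf19a_IR and 47.2 ± 3.56% in control_IR (SD, n = 3 each).

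Gene by gene, 49 of 59 tested members rose with IR in sgRnf19a-labelled cells and 0 fell, where 18.0% of all 18183 tested genes rose and 17.6% fell (edgeR's quasi-likelihood test, adjusted p under 0.05 over all genes). In control cells 53 of 59 rose and 0 fell, where 22.2% of all genes rose and 25.7% fell. At an unadjusted p under 0.05, 0 members fell under either guide, where 22.9% of all genes fell in sgRnf19a-labelled and 28.8% in control cells. DESeq2 called 51 higher and 0 lower in sgRnf19a-labelled cells (16.7% and 20.4% of all genes) and 55 higher and 0 lower in control cells (19.0% and 25.5%). The median log2 fold change was 3.34 in sgRnf19a-labelled and 3.27 in control cells, or 3.25 in sgRnf19a-labelled and 3.26 in control cells with genes at 0 counts in a group set to their lower bound. All 12 tested H4 genes rose under both guides. In sgRnf19a-labelled cells 4 of 5 H1, 13 of 16 H2A, 11 of 15 H2B and 9 of 11 H3 genes rose. In control cells 4 of 5 H1, 14 of 16 H2A, 12 of 15 H2B and 11 of 11 H3 genes did. The treated libraries of 53 members in sgRnf19a-labelled cells lay above the untreated ones without overlap (23.2% of all genes; 26.6% lay below), as did those of 56 in control cells (30.0% of all genes; 32.1% lay below).

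**Figure D2:**
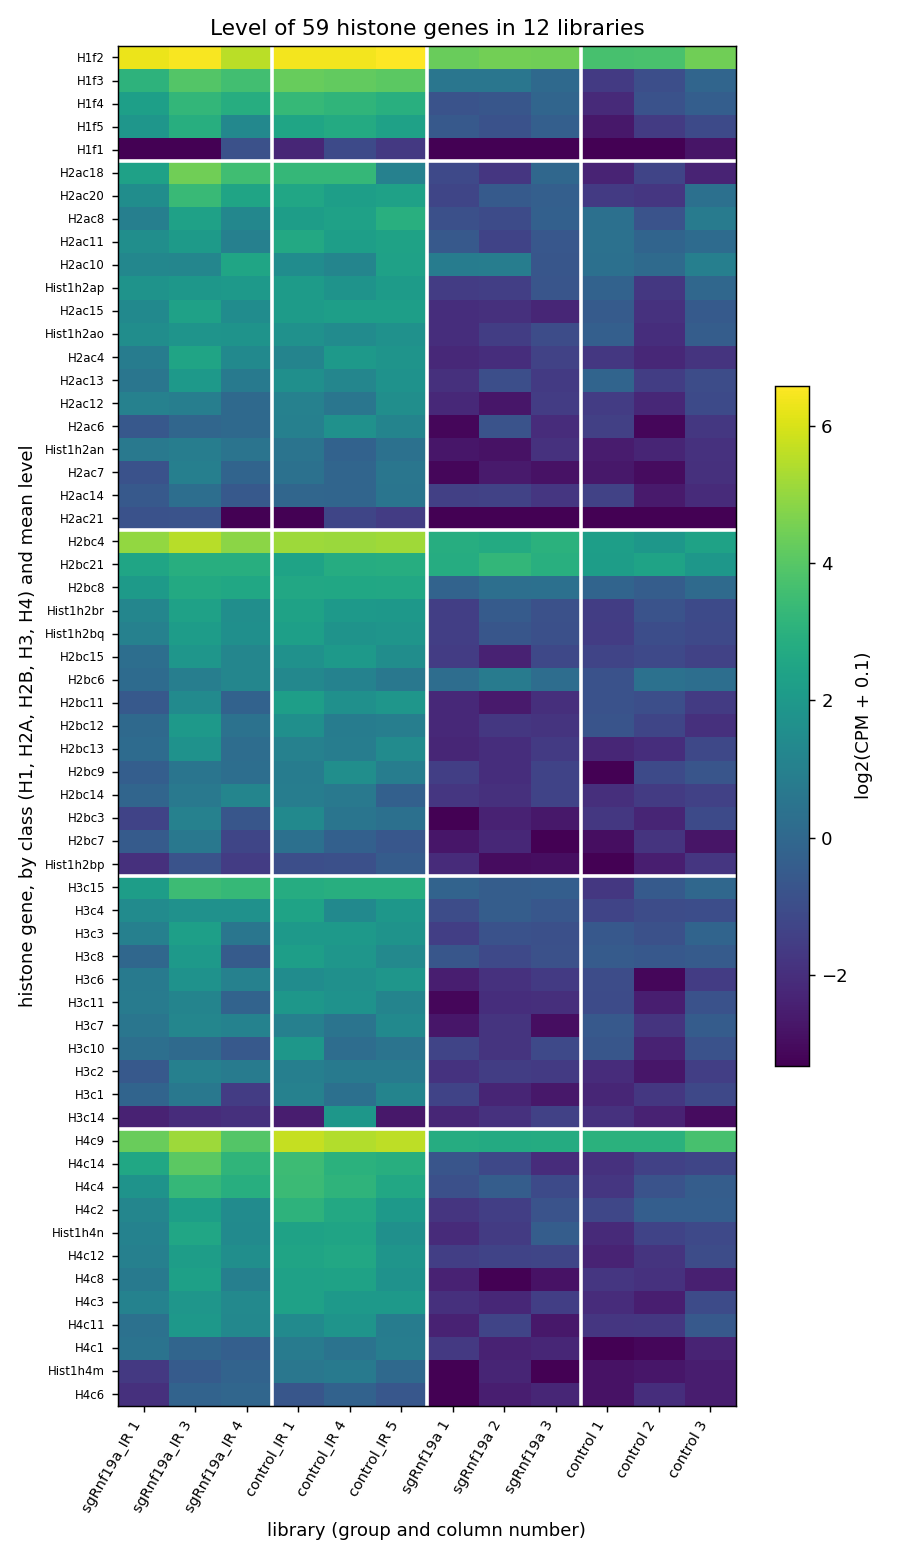
Level of the tested histone genes as log2(CPM + 0.1) in the 12 libraries, grouped by class. The 6 IR-treated columns are higher than the 6 untreated ones in most rows; H2bc21 and H2bc6 are rows where they are not clearly so.

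Among H1 genes, H1f2 had 78.8, 90.5 and 47.1 CPM in sgRnf19a_IR and 19.6, 22.0 and 21.3 CPM in sgRnf19a, and 83.9, 84.5 and 95.6 CPM in control_IR and 12.8, 13.3 and 21.2 CPM in control. The groups did not overlap, and H1f2 rose 3.44-fold in sgRnf19a-labelled cells (log2 fold change 1.78, SE 0.25, adjusted p = 0.000288). In control cells H1f2 rose 5.57-fold (log2 fold change 2.48, SE 0.25, adjusted p = 5.63e-05). With libraries scaled on other short protein-coding genes (short-gene scaling) the call in sgRnf19a-labelled cells was lost (0.41, adjusted p = 0.0753) and the value in control cells was 1.13. H1f3 had 8.35, 15.1 and 11.7 CPM in sgRnf19a_IR and 1.37, 1.38 and 0.937 CPM in sgRnf19a, and 19.1, 18.1 and 17.1 CPM in control_IR and 0.221, 0.415 and 0.842 CPM in control. It rose 9.51-fold in sgRnf19a-labelled cells and 36.3-fold in control cells, with control replicate 1 the lowest of all libraries. H1f4 rose 11.3-fold in sgRnf19a-labelled cells and 20.3-fold in control cells. H1f1 had 17 counts in sgRnf19a_IR and 0 in sgRnf19a, and 24 in control_IR and 4 in control, where about 4 counts make 1 read pair, and it did not pass the test.

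Among H2A genes, H2ac18 had 4.99, 21.6 and 11.5 CPM in sgRnf19a_IR and 0.360, 0.195 and 0.895 CPM in sgRnf19a, and 9.69, 9.49 and 1.93 CPM in control_IR and 0.0969, 0.311 and 0.0963 CPM in control. Treated libraries lay above untreated ones but spread widely, and H2ac18 rose 26.2-fold in sgRnf19a-labelled cells (log2 fold change 4.71, SE 0.82, adjusted p = 0.00105). In control cells H2ac18 rose 41.3-fold (log2 fold change 5.37, SE 0.87, adjusted p = 0.000376). H2ac20 rose 11.4-fold in sgRnf19a-labelled cells and 9.59-fold in control cells, and H2ac8 rose 5.88-fold in sgRnf19a-labelled cells and 5.12-fold in control cells. H2ac21 had 0 counts in all untreated libraries, 34 counts over the sgRnf19a_IR libraries and 20 over the control_IR libraries. It also had 0 counts in sgRnf19a_IR replicate 4 and control_IR replicate 1, so treated and untreated libraries overlapped under both guides. Against a floor of 12 counts (3 read pairs) over a group it was at least 5.80-fold higher in sgRnf19a_IR than in sgRnf19a and at least 3.86-fold higher in control_IR than in control. Its call in sgRnf19a-labelled cells (adjusted p = 0.0487) was lost when any of 10 single libraries was left out, all but sgRnf19a_IR replicate 4 and control_IR replicate 1 (adjusted p 0.0527 to 0.117), after the length and GC correction (adjusted p = 0.0598) and with short-gene scaling (adjusted p = 0.0622). In control cells it was not called (adjusted p = 0.0531), but was without either of those 2 libraries (adjusted p 0.0257 to 0.0460).

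Among H2B genes, H2bc4 had 31.5, 46.1 and 29.0 CPM in sgRnf19a_IR and 7.14, 6.46 and 8.0 CPM in sgRnf19a, and 34.4, 33.7 and 36.1 CPM in control_IR and 4.55, 3.68 and 5.08 CPM in control. The groups were far apart under both guides, and H2bc4 rose 4.93-fold in sgRnf19a-labelled cells (log2 fold change 2.30, SE 0.20, adjusted p = 1.92e-05). In control cells H2bc4 rose 7.83-fold (log2 fold change 2.97, SE 0.20, adjusted p = 6.53e-06). H2bc8 rose 5.21-fold in sgRnf19a-labelled cells and 7.24-fold in control cells.

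Among H3 genes, H3c15 had 4.41, 10.8 and 9.72 CPM in sgRnf19a_IR and 0.801, 0.649 and 0.675 CPM in sgRnf19a, and 6.99, 7.20 and 7.35 CPM in control_IR and 0.208, 0.596 and 0.878 CPM in control. The groups did not overlap, and H3c15 rose 11.7-fold in sgRnf19a-labelled cells and 12.7-fold in control cells. H3c4 rose 5.55-fold in sgRnf19a-labelled cells and 10.3-fold in control cells, and H3c3 rose 6.80-fold in sgRnf19a-labelled cells and 6.05-fold in control cells. H3c14 passed in control cells (adjusted p = 0.0400, or 0.143 with short-gene scaling) through control_IR replicate 4, with 0.0710, 3.70 and 0.0537 CPM in control_IR replicates 1, 4 and 5. Without that library its log2 fold change was -0.59 (adjusted p = 0.735), and it was also lost without sgRnf19a_IR replicate 1, sgRnf19a replicate 2 or any control library (adjusted p 0.0520 to 0.114). In sgRnf19a-labelled cells it had -0.50 (adjusted p = 0.808).

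Among H4 genes, H4c9 had 19.7, 34.6 and 15.1 CPM in sgRnf19a_IR and 6.94, 6.57 and 6.65 CPM in sgRnf19a, and 51.7, 43.0 and 48.1 CPM in control_IR and 7.84, 7.92 and 12.8 CPM in control. The groups did not overlap, and H4c9 rose 3.44-fold in sgRnf19a-labelled cells (log2 fold change 1.78, SE 0.28, adjusted p = 0.000652). In control cells H4c9 rose 5.0-fold (log2 fold change 2.32, SE 0.29, adjusted p = 0.000109). With short-gene scaling the call in sgRnf19a-labelled cells was lost (0.37, adjusted p = 0.102) and the value in control cells was 0.97. H4c14 had 5.82, 16.8 and 8.76 CPM in sgRnf19a_IR and 0.507, 0.338 and 0.138 CPM in sgRnf19a, and 10.8, 7.89 and 7.22 CPM in control_IR and 0.166, 0.272 and 0.325 CPM in control. All its treated libraries were far above all untreated ones, and H4c14 rose 31.6-fold in sgRnf19a-labelled cells (log2 fold change 4.98, SE 0.52, adjusted p = 7.06e-05). In control cells H4c14 rose 33.5-fold (log2 fold change 5.07, SE 0.53, adjusted p = 5.96e-05). H4c4 rose 13.7-fold in sgRnf19a-labelled cells and 18.8-fold in control cells. H4c1 rose 6.67-fold in sgRnf19a-labelled cells and 38.7-fold in control cells, and its call in sgRnf19a-labelled cells was lost without sgRnf19a_IR replicate 1, sgRnf19a replicate 2 or sgRnf19a replicate 3 (adjusted p 0.0586 to 0.0641) and with short-gene scaling (1.42, adjusted p = 0.150).

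H2bc21, an H2B gene, did not pass the test with IR. It had 5.52, 7.21 and 7.21 CPM in sgRnf19a_IR and 6.82, 9.31 and 7.41 CPM in sgRnf19a, and 5.22, 6.88 and 7.11 CPM in control_IR and 4.46, 5.23 and 3.71 CPM in control. Treated and untreated libraries overlapped under both guides, with a log2 fold change of -0.24 (SE 0.21, adjusted p = 0.412) in sgRnf19a-labelled and 0.52 (SE 0.21, adjusted p = 0.0602) in control cells. In control cells it passed without control_IR replicate 1 or control replicate 2 (adjusted p 0.0436 to 0.0474) and after a correction for length and GC content (log2 fold change 1.10, adjusted p = 0.00118). Its annotated transcript of 2620 bases holds no stem-loop. H2ac20 starts 239 bases from it on the other strand, in the promoter window shown above, and had a log2 fold change of 3.51 in sgRnf19a-labelled and 3.26 in control cells. In the other 11 facing pairs both genes had positive values under both guides.

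Other members outside the pattern were few. H2bc6, with a transcript of 2506 bases, had a log2 fold change of 0.41 in sgRnf19a-labelled and 1.07 in control cells and did not pass. After the length and GC correction it passed in control cells (1.59, adjusted p = 0.00853), and with short-gene scaling its values were -0.91 in sgRnf19a-labelled and -0.33 in control cells. Nor did H2ac10 pass, with 1.32 in sgRnf19a-labelled and 1.32 in control cells, or Hist1h2bp, with 2.19 in sgRnf19a-labelled and 2.43 in control cells. H2ac6, H2ac14, H2bc9 and H3c10 did not pass in sgRnf19a-labelled cells, with log2 fold changes of 1.88, 1.59, 2.14 and 1.65. The responses under the 2 guides come from separate libraries and had a Spearman rho of 0.519 across the 59 members, as a description of genes that share reads.

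**Figure D3:**
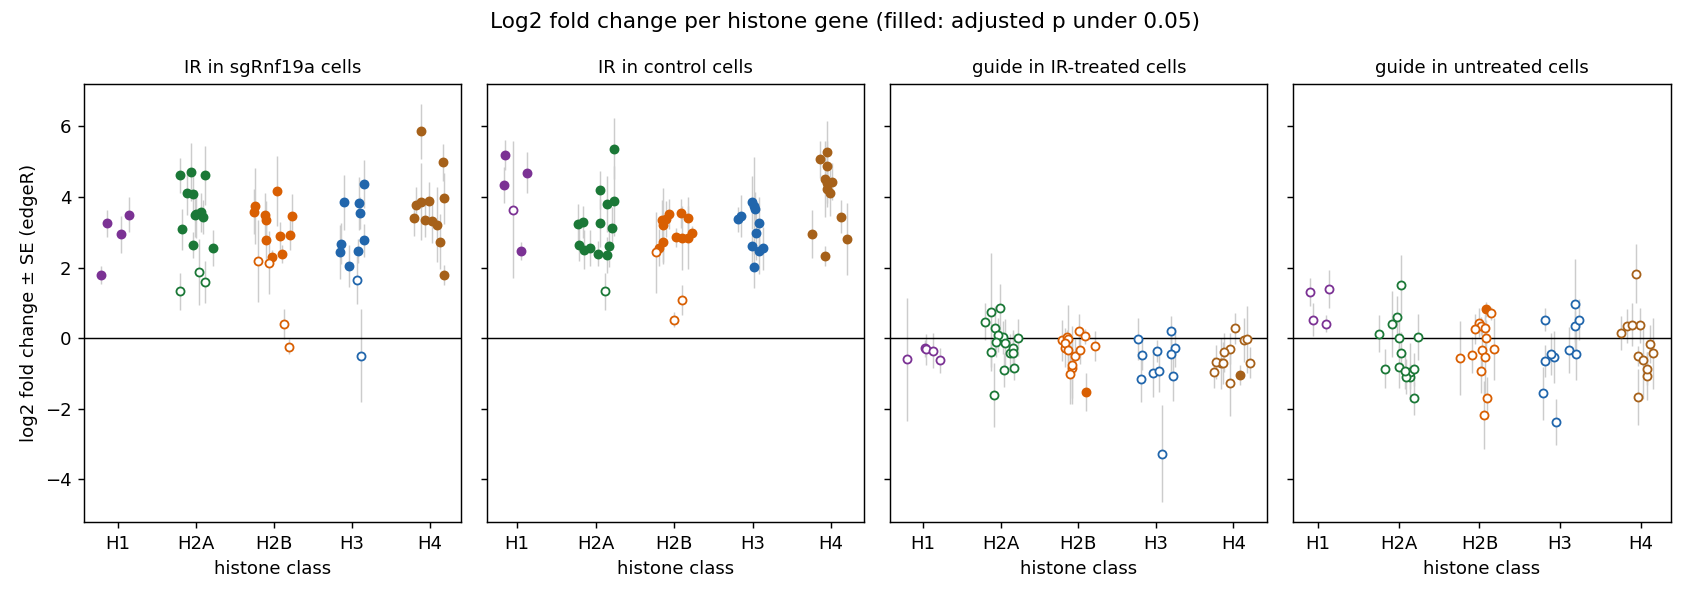
Log2 fold change of each tested histone gene by class in 4 comparisons; bars are SE, filled points passed an adjusted p under 0.05, and genes at 0 counts in a group are left out. With IR most points lie above 0 (49 of 59 tested members rose in sgRnf19a-labelled and 53 of 59 in control cells). The 59 include H1f1 and H2ac21, not drawn for IR in sgRnf19a-labelled cells, and H2ac21, not drawn for IR in control cells. Between sgRnf19a_IR and control_IR most points lie below 0 (47 of 59 negative and 12 positive). Between sgRnf19a and control they lie on both sides of 0.

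Transcript ends and shared sequence were not used to choose the genes. Members whose transcript ends at the stem-loop had a median log2 fold change of 3.50 in sgRnf19a-labelled and 3.20 in control cells. Those running past it had 2.90 in sgRnf19a-labelled and 3.51 in control cells, and those without it 3.01 in sgRnf19a-labelled and 3.29 in control cells. Members with at least 50% shared stretches had 3.43 in sgRnf19a-labelled and 3.28 in control cells, and the others 2.85 in sgRnf19a-labelled and 3.31 in control cells. The median of all tested genes was -0.02 under each guide; the groups of members were not tested against each other.

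Transcript length moved with IR across the whole libraries. Other protein-coding genes with transcripts under 600 bases, of which 83 were tested, had a median log2 fold change of 1.45 in sgRnf19a-labelled and 1.28 in control cells, and those of 4000 bases or more had -0.43 in sgRnf19a-labelled and -0.65 in control cells. The histone transcripts had a median of 529 bases, and members under 600 bases had medians of 3.48 in sgRnf19a-labelled and 3.24 in control cells. After the correction for length and GC content, 45 members rose and 0 fell in sgRnf19a-labelled cells (median 2.59), where 19.3% of all genes rose and 16.6% fell. In control cells 49 rose and 0 fell (median 2.18), where 24.5% of all genes rose and 17.2% fell. The correction did not remove the length shift in full. Other protein-coding genes under 600 bases still had corrected medians of 0.88 in sgRnf19a-labelled and 0.52 in control cells. Scaling on 560 other short genes moved the median of all genes to -1.33 in sgRnf19a-labelled and -1.40 in control cells. The member median was then 1.98 in sgRnf19a-labelled and 1.97 in control cells, against 3.34 and 3.27 before this scaling. Relative to the median of all genes it was 3.31 in sgRnf19a-labelled and 3.37 in control cells. Scaling moves members and all genes together, so that difference stays nearly the same by construction. With this scaling 39 members rose in sgRnf19a-labelled cells (2.88% of all genes rose and 60.3% fell) and 40 in control cells (2.73% rose and 62.9% fell), and the 1 member that fell in each was H2bc21.

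**Figure D4:**
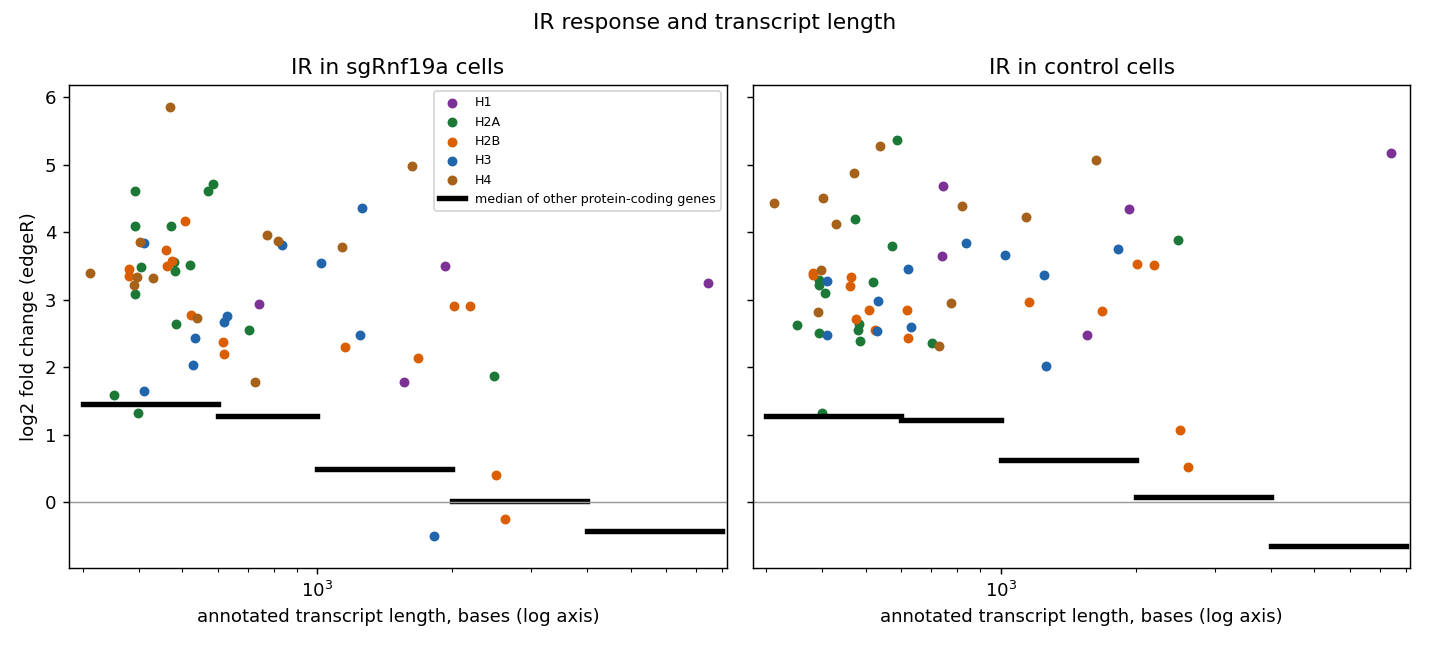
Log2 fold change with IR of each tested histone gene (points) against annotated transcript length in bases (log axis); lines are the medians of other protein-coding genes by length class. Members under 600 bases have medians of 3.48 in sgRnf19a-labelled and 3.24 in control cells, against 1.45 in sgRnf19a-labelled and 1.28 in control cells for other genes of that length.

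Within the IR-treated libraries the histone sum moved with the rRNA share. Among the 6 IR-treated libraries the order of the sums was the order of the rRNA shares, with sgRnf19a_IR replicate 1 lowest (238 CPM, 11.4% rRNA) and sgRnf19a_IR replicate 3 highest (411 CPM, 22.2% rRNA). Among the 6 untreated libraries the orders differed in part. The lowest sum, in control replicate 2, had the third lowest rRNA share, while control replicate 3 had both the highest sum and the highest rRNA share. Of 6 other RNAs that lack a poly(A) tail, listed after the data were seen, 5 rose with IR under each guide. Of all genes 18.0% rose in sgRnf19a-labelled and 22.2% in control cells. The 6 RNAs had a median log2 fold change of 5.44 in sgRnf19a-labelled and 5.36 in control cells. Rn7sk, a small nuclear RNA that holds back transcription elongation, rose 17.4-fold in sgRnf19a-labelled cells and 15.9-fold in control cells. The part of rRNA share, transcript length and RNA class in the histone result was not tested. Over the 12 libraries the genes that followed the histone sum most closely were Psmd8 (Pearson r 0.994), Lars2 (0.993), Ormdl2 (0.992), Ssu72 (0.992) and the rRNA gene CT010467 (0.992); treated and untreated libraries form separate clusters, so these values describe that split.

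**Figure D5:**
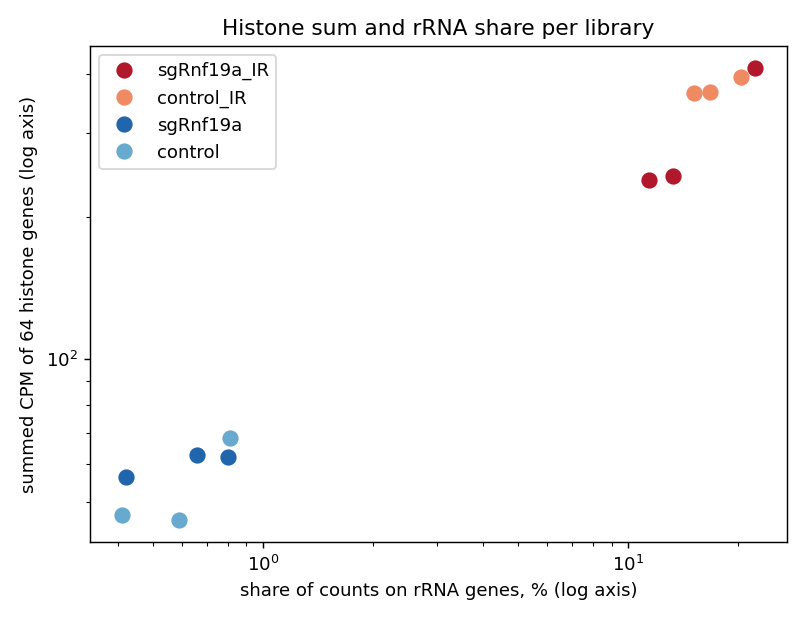
Summed CPM of the 64 histone genes against the share of counts on rRNA genes in percent, 1 point per library. The IR-treated libraries lie at 11.4 to 22.2% and 238 to 411 CPM, in the same order on both axes; the untreated ones lie at 0.408 to 0.813% and 45.8 to 68.3 CPM.

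Between the guides the histone genes differed less than with IR. After IR the sum had a log2 fold change of -0.34 (SE 0.22) between sgRnf19a_IR and control_IR, with overlapping libraries, since sgRnf19a_IR replicate 3 exceeded all control_IR libraries. Of 59 members 0 were called higher and 2 lower, where 21.0% of all genes were called higher and 12.8% lower. Libraries of 0 members lay above and 9 below without overlap (23.0% and 19.5% of all genes). Without IR the sum had a log2 fold change of 0.17 (SE 0.22), and 1 member was called higher and 0 lower, where 3.02% of all genes were called higher and 3.2% lower. Libraries of 4 members lay above and 6 below without overlap (22.3% and 15.9% of all genes). At an unadjusted p under 0.05 edgeR gave 0 higher and 5 lower after IR, where 26.1% of all genes were higher and 17.8% lower. Without IR it gave 4 higher and 5 lower, near the share of all genes (7.97% higher and 8.95% lower). DESeq2 called 0 higher and 2 lower after IR (21.9% and 12.1% of all genes), and 3 higher and 3 lower without it (4.42% and 4.54%). After IR 47 of 59 members had negative and 12 positive values (median log2 fold change -0.36). Other protein-coding genes under 600 bases had a median of -0.35, and those of 4000 bases or more 0.39. Without IR the medians were -0.33 for members, -0.35 for those short genes and 0.09 for the long ones. The part of transcript length in the guide differences was not tested.

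Markers of other cell types also differed between the guides, in both directions. The summed level of 6 fibroblast markers was 100.3 to 203 CPM in sgRnf19a_IR and 396 to 426 CPM in control_IR, and 57.2 to 145 CPM in sgRnf19a and 470.2 to 503 CPM in control. Col3a1, a collagen gene, led that sum, with 52.1 ± 6.78 CPM in sgRnf19a_IR and 346 ± 20.3 CPM in control_IR (SD, n = 3 each). The other 5 had higher means in sgRnf19a_IR than in control_IR, so that the median log2 fold change of the list after IR was 0.76. Of the list 0 were called higher and 1 lower (21.0% and 12.8% of all genes). Without IR the list median was -0.49, with 0 called higher and 2 lower (3.02% and 3.2% of all genes). The summed level of 5 epithelium markers was 394 to 684 CPM in sgRnf19a_IR and 1043 to 1216 CPM in control_IR, and 559 to 572 CPM in sgRnf19a and 658 to 830.4 CPM in control. Krt8, Krt18 and Krt19 led that sum, each with a lower mean in sgRnf19a_IR than in control_IR. Epcam and Cdh1, at low levels, had higher means there. Without IR the means of Krt19 and Epcam were higher in sgRnf19a than in control, and those of the others lower. Of 4 tested, 0 were called higher and 2 lower after IR (21.0% and 12.8% of all genes). Without IR 0 were called in either direction (3.02% and 3.2%). The summed level of 3 endothelium markers was 4.15 to 5.66 CPM in sgRnf19a_IR and 0.946 to 2.34 CPM in control_IR, and 0.792 to 3.06 CPM in sgRnf19a and 2.08 to 3.90 CPM in control. The 4 immune markers with counts summed to 20.2 to 37.5 CPM in sgRnf19a_IR and 9.77 to 24.2 CPM in control_IR, and to 42.1 to 61.6 CPM in sgRnf19a and 36.0 to 41.4 CPM in control. Their sum was thus also lower with IR under each guide, without overlap, and Cd3e had 0 counts. The part of these markers in the guide and IR differences was not tested.

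Corrected for length and GC content, 1 member was higher and 2 lower after IR (11.4% and 14.9% of all genes), and 0 higher and 1 lower, H3c7, without it (4.05% and 3.98%). Scaled on short genes, 1 was higher and 1 lower after IR (26.7% and 4.53%), and 4 higher and 0 lower without it (3.92% and 1.35%).

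H4c9 was 2.06-fold lower in sgRnf19a_IR than in control_IR (log2 fold change -1.04, SE 0.28, adjusted p = 0.0141). Its sgRnf19a_IR libraries (15.1 to 34.6 CPM) lay below all control_IR libraries (43.0 to 51.7 CPM). The call was lost without control_IR replicate 1 (adjusted p = 0.0513) and kept after the length and GC correction (-0.86, adjusted p = 0.0186). Without IR it had -0.50 (adjusted p = 0.413), sgRnf19a libraries again lying below control ones. H2bc11 had 0.580, 2.55 and 0.772 CPM in sgRnf19a_IR and 4.58, 3.04 and 3.57 CPM in control_IR, and was 2.89-fold lower (log2 fold change -1.53, SE 0.54, adjusted p = 0.0459). Leaving out any single library but sgRnf19a_IR replicate 3 or control replicate 3 ended that call (adjusted p 0.0511 to 0.140), as did the correction (-0.90, adjusted p = 0.180).

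H4c9, H2ac11 and H2bc11 are neighbours on chromosome 13 (22040636 to 22043676), a grouping picked after values were seen. H2ac11 had 2.88, 4.11 and 1.86 CPM in sgRnf19a_IR and 6.14, 4.65 and 5.10 CPM in control_IR, and 0.574, 0.299 and 0.537 CPM in sgRnf19a and 1.20, 0.816 and 0.999 CPM in control. All 3 genes were lower in libraries labelled sgRnf19a without overlap both with and without IR. Of all genes 19.5% lay below without overlap with IR and 15.9% without it. H2ac11 passed in neither (adjusted p = 0.0713 with IR and 0.101 without), and its corrected log2 fold change with IR was -0.03. H2ac11 shares 79.5% and H2bc11 63.7% of its 37-base stretches with other members, so which copy their counts belong to is uncertain. The next pair, H2ac12 and H2bc12, overlapped between the guides in both conditions.

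Without IR, H2bc21 was 1.76-fold higher in sgRnf19a than in control (log2 fold change 0.81, SE 0.21, adjusted p = 0.0403). The call was lost without any single library of the untreated groups but control replicate 2, and without sgRnf19a_IR replicate 1 or control_IR replicate 4 or 5 (adjusted p 0.0613 to 0.199), and after the correction (adjusted p = 0.0742). H1f3 (1.30, adjusted p = 0.0771) and H2bc4 (0.70, adjusted p = 0.0531) lay higher in all sgRnf19a libraries and did not pass; H1f3 did without sgRnf19a_IR replicate 4 or control replicate 3, and H2bc4 without sgRnf19a_IR replicate 3 or 4. The H2B sum was 17.5, 20.7 and 20.1 CPM in sgRnf19a and 12.5, 13.8 and 14.0 CPM in control, higher without overlap. The H4 sum was 9.02, 9.07 and 9.19 CPM in sgRnf19a and 9.37, 10.5 and 16.5 CPM in control, lower without overlap.

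The difference between the IR responses was tested directly, and edgeR called 0 of 59 members in either direction, where 0.544% of all genes were called higher and 0.137% lower. At an unadjusted p under 0.05, 1 member was higher and 6 lower, where 14.8% of all genes were higher and 6.44% lower. DESeq2 called 0 higher and 1 lower (7.56% and 1.97% of all genes). With the correction 1.13% of all genes were called higher and 0.804% lower, and with scaling on short genes 0.0055% higher. The response of the sum in sgRnf19a-labelled cells minus that in control cells was -0.50 on the log2 scale (SE 0.30). By class it was -0.81 (SE 0.32) for H1, 0.42 (SE 0.42) for H2A, -0.68 (SE 0.26) for H2B, -0.13 (SE 0.38) for H3 and -0.25 (SE 0.40) for H4. H1f3 had -1.93 (SE 0.52, adjusted p = 0.101) and H2bc4 -0.67 (SE 0.27, adjusted p = 0.187). Both passed without sgRnf19a_IR replicate 3, H1f3 with an adjusted p of 0.0249 and H2bc4 with 0.0246.

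Genes that make and handle histone mRNA moved in both directions with IR. Of 25 genes of histone mRNA processing, 9 rose and 4 fell in sgRnf19a-labelled cells (18.0% and 17.6% of all genes) and 8 rose and 10 fell in control cells (22.2% and 25.7%). After the length and GC correction 11 rose and 4 fell in sgRnf19a-labelled cells (19.3% and 16.6% of all genes), and 12 rose and 5 fell in control cells (24.5% and 17.2%). Slbp had 149.8, 160.0 and 197 CPM in sgRnf19a_IR and 114, 109 and 131 CPM in sgRnf19a, and 117, 144 and 161 CPM in control_IR and 143, 119 and 161 CPM in control. Its log2 fold change was 0.52 in sgRnf19a-labelled cells (adjusted p = 0.0299, but -0.77 with scaling on short genes) and -0.00 in control cells (adjusted p = 0.992, but 0.71 with an adjusted p of 0.00485 after the length and GC correction, and -1.36 with an adjusted p of 0.000204 with short-gene scaling). The call in sgRnf19a-labelled cells was lost without sgRnf19a_IR replicate 1 or 4 or sgRnf19a replicate 1 or 2 (adjusted p 0.0558 to 0.108). Snrpf, a core Sm protein also found in the U7 snRNP, rose 3.21-fold in sgRnf19a-labelled cells and 3.31-fold in control cells.

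Casp8ap2 (FLASH), which works in histone pre-mRNA cleavage, had 7.56, 6.38 and 42.7 CPM in sgRnf19a_IR and 105, 111 and 109 CPM in sgRnf19a, and 3.55, 3.99 and 4.75 CPM in control_IR and 85.1, 103 and 38.4 CPM in control. It fell 5.73-fold in sgRnf19a-labelled cells (adjusted p = 0.00839) and 18.4-fold in control cells (adjusted p = 0.000367). Among all protein-coding genes outside the family with transcripts of 4000 bases or more, 37.3% fell in sgRnf19a-labelled and 49.3% in control cells. Npat had 21.7, 12.3 and 97.0 CPM in sgRnf19a_IR and 104, 109 and 93.6 CPM in sgRnf19a, and 7.14, 8.81 and 8.16 CPM in control_IR and 76.2, 88.8 and 50.2 CPM in control. It fell 8.92-fold in control cells (adjusted p = 0.00109), and had a log2 fold change of -1.22 in sgRnf19a-labelled cells (adjusted p = 0.113, or 1.09e-05 without sgRnf19a_IR replicate 4). In both genes sgRnf19a_IR replicate 4 lay far above the others of its group; in that library genes over 6 kb stood 0.90 above genes under 1 kb in median log2 CPM, against 0.05 in replicate 1 and -0.76 in replicate 3.

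Of 13 genes of histone gene transcription, 1 rose and 5 fell in sgRnf19a-labelled cells and 4 rose and 9 fell in control cells. All lists of this paragraph are to be read against the shares of all genes. Of these 18.0% rose and 17.6% fell in sgRnf19a-labelled cells, and 22.2% rose and 25.7% fell in control cells. After the length and GC correction 19.3% rose and 16.6% fell in sgRnf19a-labelled cells, and 24.5% rose and 17.2% fell in control cells. After the correction 1 rose and 4 fell in sgRnf19a-labelled cells and 3 rose and 5 fell in control cells. Of 25 histone chaperone genes, 5 rose and 8 fell in sgRnf19a-labelled cells and 4 rose and 8 fell in control cells, or 7 rose and 8 fell in sgRnf19a-labelled cells and 9 rose and 6 fell in control cells after the correction. Daxx, an H3.3 chaperone, rose 5.55-fold in sgRnf19a-labelled cells and 2.86-fold in control cells, where the call was lost with short-gene scaling (0.15, adjusted p = 0.476). Of 42 genes of S phase and replication, 18 rose and 8 fell in sgRnf19a-labelled cells and 17 rose and 12 fell in control cells, or 16 rose and 12 fell in sgRnf19a-labelled cells and 21 rose and 9 fell in control cells after the correction. Pcna, the replication clamp, rose 3.49-fold in sgRnf19a-labelled cells and 2.98-fold in control cells, where this scaling also ended the call (0.24, adjusted p = 0.111). Clspn, a checkpoint mediator, fell 3.79-fold in sgRnf19a-labelled and 5.91-fold in control cells.

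Of 12 histone genes not tied to replication, 4 rose and 0 fell with IR in sgRnf19a-labelled cells (median log2 fold change 0.44). Of all genes 18.0% rose and 17.6% fell. In control cells 7 rose and 0 fell (0.66), where 22.2% of all genes rose and 25.7% fell. After the correction 3 rose and 0 fell in sgRnf19a-labelled cells (median 0.07), where 19.3% of all genes rose and 16.6% fell. In control cells 6 rose and 0 fell (0.39), where 24.5% of all genes rose and 17.2% fell. H2az1, which encodes H2A.Z, rose 3.32-fold in sgRnf19a-labelled cells and 3.56-fold in control cells; in sgRnf19a-labelled cells short-gene scaling ended the call (0.35, adjusted p = 0.0685). H2ax, which encodes H2A.X and whose transcript holds the stem-loop pattern, had 43.7, 52.5 and 31.6 CPM in sgRnf19a_IR and 31.2, 27.8 and 31.3 CPM in sgRnf19a, and 124, 105 and 112 CPM in control_IR and 51.4, 41.8 and 59.8 CPM in control. It had a log2 fold change of 0.50 in sgRnf19a-labelled cells (adjusted p = 0.0563, or 0.00285 without sgRnf19a_IR replicate 4) and rose in control cells (1.15, adjusted p = 0.000398, but -0.20 with scaling on short genes). Between the guides 1 of the 12 was called higher and 5 lower after IR (21.0% and 12.8% of all genes). Without IR 1 was called higher and 2 lower (3.02% and 3.2%). H2ax was 2.66-fold lower in sgRnf19a_IR than in control_IR (adjusted p = 0.000378), and 1.70-fold lower in sgRnf19a than in control (adjusted p = 0.0323, with 0.0509 to 0.146 when any of 7 single libraries was left out and 0.126 with short-gene scaling).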

How the data were processed

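RNA of 12 libraries was depleted of rRNA and sequenced in pairs of 37 bases on a NextSeq 500 from directional libraries with 12 PCR cycles, per the labels' protocols. The submitters' processing notes name Bowtie2, HTSeq, DESeq2 and the builds mm10 and GRCm39; the role of each is not given in the sources used here. The authors deposited a table of gene counts, treated here as estimated counts because low values pile up at multiples of 4 (the value 4 occurs 12162 times, 3 occurs 4921 times and 5 occurs 3525 times), so that about 4 counts stand for 1 read pair. They also deposited an FPKM table, which gave names, coordinates and levels per length; how its FPKM values were scaled is not stated per the file headers. The count table's 12 repeated per-sample columns were not used. All member coordinates matched GENCODE M21.

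Counts of the 12 libraries were fitted together with 4 group means in edgeR 4.0.16 (TMM, robust quasi-likelihood, R 4.3.3) after filterByExpr (minimum count 10, minimum total 15), and p-values were adjusted by Benjamini and Hochberg over 18183 genes, with a threshold of 0.05. CPM values use TMM-scaled library sizes. Class sums were fitted beside the genes and carry no p. Alternatives used DESeq2 1.42.0, limma 3.58.1 on log2(FPKM + 1) and log2(FPKM + 0.1), other scalings and filters, a spline correction for length and GC content (5 degrees of freedom), replicate blocks and each library left out in turn. The fits were tested on simulated data. With 3 libraries against 3 an exact permutation test cannot give a two-sided p below 0.1, so that test was not used.

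Members and gene lists were chosen with earlier results of these data known. The named genes are the 3 members with the highest mean CPM in each class, the largest and smallest change in a comparison, called members where 10 or fewer were called, and leading genes of the related lists; the others are named as examples chosen after their values were seen.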

Additional observations from a re-analysis of the deposited data

Results flagged for a closer look

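Mcm6, a subunit of the replicative helicase, is no member of the histone genes but stood in the list of S phase genes, and its response to IR differed between the guides by the test of that difference. It had 355, 279.7 and 377 CPM in sgRnf19a_IR and 231, 233 and 248 CPM in sgRnf19a, and 151, 183 and 151 CPM in control_IR and 229, 222 and 244 CPM in control. It had a log2 fold change with IR of 0.51 (SE 0.14) in sgRnf19a-labelled and -0.52 (SE 0.14) in control cells, a difference of 1.03 (SE 0.19, adjusted p = 0.0382 by edgeR's quasi-likelihood test). The 3 treated libraries lay above the untreated ones in sgRnf19a-labelled cells and below them in control cells. The call was lost when any of 9 single libraries was left out, all but sgRnf19a_IR replicates 3 and 4 and control_IR replicate 4 (adjusted p 0.0742 to 0.128). With the length and GC correction the difference was 0.63 and no longer called, and the value in control cells was 0.10. With scaling on short genes Mcm6 was -0.78 in sgRnf19a-labelled and -1.89 in control cells.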

How the results depend on the processing

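With IR, between 44 and 50 members were called higher in sgRnf19a-labelled cells and between 49 and 55 in control cells when each library was left out in turn, and the sum kept its direction (log2 fold change 1.99 to 2.42 in sgRnf19a-labelled and 2.71 to 3.02 in control cells). The IR sum in sgRnf19a-labelled cells was 0.92 with scaling on short genes, 1.93 with the length and GC correction and 3.18 without the 4 leading genes. In control cells it was 1.45, 2.30 and 3.35 under these settings, and 2.40, 2.42 and 2.40 with limma on log2(FPKM + 1), log2(FPKM + 0.1) and log2(FPKM + 1) without a filter. Leaving out the 4 genes was chosen after seeing the data. With scaling on short genes 1 member was called lower with IR under each guide, and each limma version called 1 lower in sgRnf19a-labelled cells.

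Without IR, members called higher in sgRnf19a than in control numbered 3 with DESeq2, 0 with upper-quartile scaling, the correction, no low-count filter or limma without a filter, 4 with short-gene scaling, and 2 with a filter of 1 CPM, counts divided by 4, only the groups compared or limma on log2(FPKM + 1). Members called lower numbered 3 with DESeq2, 1 with the correction or limma on log2(FPKM + 1) and 2 with limma on log2(FPKM + 0.1). The sum was 0.55 with short-gene scaling and -0.14 without the 4 genes. With libraries left out, 0 to 3 were higher and 0 to 3 lower, and the sum was 0.07 to 0.38.

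After IR, members called higher in sgRnf19a_IR than in control_IR numbered 1 with short-gene scaling or the correction. Members called lower numbered 1 with DESeq2 size factors, short-gene scaling or no filter, 14 with limma on log2(FPKM + 1), 4 on log2(FPKM + 0.1) and 7 without a filter. The sum was 0.019 with short-gene scaling. With libraries left out, 0 were higher and 0 to 7 lower, and the sum was -0.64 to -0.21. For the difference between responses, DESeq2 called 1 lower, the sum without the 4 genes was -0.17, and with libraries left out 0 were higher and 0 to 4 lower (4 without sgRnf19a_IR replicate 3), with a sum of -0.81 to -0.30.

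Same-numbered libraries did not deviate together (r -0.17, 0.09 and 0.16 untreated, 0.02 and 0.25 with IR), so the numbers were not taken as a pairing. A replicate block on the untreated numbers gave 44 higher with IR in sgRnf19a-labelled and 49 in control cells, 0 higher without IR and 1 lower after IR. A replicate block on all column numbers gave 47 higher with IR in sgRnf19a-labelled and 51 in control cells with a sum of 3.12, 2 higher and 1 lower without IR, 9 lower after IR and 3 lower in the difference.

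Directions turned with short-gene scaling for genes outside the family. In sgRnf19a-labelled cells these were H3f3b (-0.37), Rfc3 (-0.094), Ccne1 (-0.93), Asf1a (-0.47), H3f3a (-0.10), Lsm10 (-0.74) and Slbp (-0.77). In control cells they were E2f1 (-0.42), Cdk2 (-0.94), Asf1b (-0.86), H3f3b (-0.50), Rfc3 (-0.30), H3f3a (-0.35), H2ax (-0.20), Lsm10 (-0.68) and Lsm11 (-0.70). With limma on log2(FPKM + 1), with and without a filter, Ccne1 was -0.049 in sgRnf19a-labelled and Cdk2 -0.045 in control cells; on log2(FPKM + 0.1) Ccne1 was -0.051 and Cdk2 -0.049. With the correction Lsm10 was -0.0076 and Eri1 0.59 in control cells with IR, and Eri1 was -0.24 between sgRnf19a_IR and control_IR. H3c14 with IR in control cells was -0.59 to 4.43 with libraries left out, the lowest without control_IR replicate 4. The cause of these changes was not tested. Members with few counts limit what single genes can show, and shared reads limit which copy a count belongs to.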
